A study of Mus musculus with 9 samples.

Results

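The genes described here encode the proteins of the cytosolic ribosome. They were chosen by name: every non-control probe called Rpl or Rps with a number in the scanner files, together with Rplp0, Rplp1, Rplp2 and Rpsa, and without the Rps6k kinases. That gave 130 probes of 41174 on the array, for 78 genes of 27665. The small (40S) subunit had 32 of these genes and the large (60S) subunit 46. Each gene was represented by its brightest probe among those chosen by name. All 78 genes entered the test, among 19853 tested genes, through 127 of the 130 probes, and 77 of the 78 were well above background on all 9 arrays.

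The study compared 2 sorted fractions of prostate cells from BL6 mice. The marker-positive group, labelled stem cell, was Lin-CD44+CD133+Sca-1+CD117+ and had 3 arrays. The marker-negative group, labelled non-stem, was Lin-CD44-CD133-Sca-1-CD117- and had 6 arrays. Both fractions came straight from tissue, with no transgene or treatment named, and no age of the mice is given in the labels. Amplified, Cy5-labelled sample RNA was hybridised on every array together with Cy3-labelled Universal Mouse Reference, a commercial pool of mouse RNA. Each value below is a log2 ratio of sample over that pool, and a difference subtracts the marker-negative mean from the marker-positive mean. Since the labels do not say that arrays came from separate animals, p-values measure only the spread between arrays, which may be technical.

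A ribosome holds a single copy of nearly every ribosomal protein, and cells make these proteins in matched amounts. Their mRNAs are among the most abundant in most cells and begin at a 5′ terminal oligopyrimidine (TOP) tract, a run of C and T bases at the start of transcription through which mTOR signalling controls their translation. Several of the proteins also act outside the ribosome: Rpl5 and Rpl11 bind the p53 regulator Mdm2, and Rps6 is the best known substrate of the S6 kinases.

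Start-site windows are printed for 7 genes named in the results. They are Rpl28, which passed the test below, Rpl4, which had one of the 6 lowest differences, and Rpl7a, Rpl14 and Rps2, which had differences above 0. The others are the stalk gene Rplp2 and Rpl3l, the dimmest member. Each window runs 5′ to 3′ over 70 bases, 40 before and 30 from the listed start. Capitals mark the longest unbroken run of C and T, which need not lie at the start and so need not be a TOP tract. All are from RefSeq, build GRCm38.p6, on the plus strand, at chr7:4792925-4792994 for Rpl28, chr9:64173347-64173416 for Rpl4, chr2:26910767-26910836 for Rpl7a, chr9:120571477-120571546 for Rpl14, chr7:141447611-141447680 for Rplp2, chr17:24720023-24720092 for Rps2 and chr17:24727786-24727855 for Rpl3l.
Rpl28: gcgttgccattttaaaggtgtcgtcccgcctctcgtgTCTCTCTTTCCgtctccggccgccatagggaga
Rpl4: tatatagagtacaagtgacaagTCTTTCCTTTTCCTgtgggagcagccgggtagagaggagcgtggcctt
Rpl7a: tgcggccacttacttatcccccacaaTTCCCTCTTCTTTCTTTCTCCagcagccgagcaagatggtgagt
Rpl14: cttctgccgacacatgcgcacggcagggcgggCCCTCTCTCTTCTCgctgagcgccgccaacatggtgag
Rplp2: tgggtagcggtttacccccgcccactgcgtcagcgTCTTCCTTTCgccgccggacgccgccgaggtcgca
Rps2: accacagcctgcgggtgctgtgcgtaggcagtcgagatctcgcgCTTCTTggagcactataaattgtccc
Rpl3l: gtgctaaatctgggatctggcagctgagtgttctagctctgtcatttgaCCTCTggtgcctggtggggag
The run spanned 21 bases in Rpl7a, 14 bases in Rpl4 and in Rpl14, 11 bases in Rpl28 and 10 bases in Rplp2, against 6 bases in Rps2 and 5 bases in Rpl3l. Counted from the listed start, its first base was at -18 in Rpl4, -14 in Rpl7a, -8 in Rpl14, -5 in Rplp2 and -3 in Rpl28. In Rps2 it was at 5 and in Rpl3l at 10. The run of Rpl4 ended before the listed start.

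RefSeq promoters were matched for 58 of the 78 genes. The longest C and T run in the 70-base window had a median of 9 bases in these genes, against 6 bases over all 27025 promoters in the table. A run of at least 8 bases was present in 31 of the 58 (53.4%), against 26.6% of all promoters. The motif CGGAAG, or CTTCCG on the other strand, which is the core recognised by ETS-family factors such as GABP, was in 40 of the 58 300-base promoters (69.0%), against 17.2% of all promoters. The YY1 core AAGATGGC, on either strand, was in 6.90%, against 2.88%. TATAAA in the 40 bases before the start was in none of the 58 and in 2.55% of all promoters. The median difference between the sorted fractions was -0.31 in the 31 genes with a run of at least 8 bases and -0.29 in the 27 with a shorter run.

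Over all probes, the share with Cy5 clearly over background was 67.3%, 69.3% and 45.4% on the 3 marker-positive arrays and 47.5% to 69.5% on the marker-negative arrays. The 9 arrays came from 5 slides, of which 2 carried both groups. Genes marking other cell types moved with the groups. The 15 luminal secretory markers had a mean log2 ratio of 1.15 to 3.07 over marker-positive arrays and 3.67 to 4.89 over marker-negative arrays, with 5 lower. For 9 mast cell markers the array means were 3.91 to 4.33 in marker-positive and 0.77 to 3.36 in marker-negative arrays, with 4 higher. Among those 4 was Kit, which encodes the sorting marker CD117, so its direction is not independent of the sort. For 12 macrophage markers they were 3.52 to 4.56 in marker-positive and 0.41 to 3.0 in marker-negative arrays, with 4 higher, and Cd163 and Mrc1 cleared background on 0 of 6 marker-negative arrays. For 13 lymphocyte markers they were -0.27 to 0.87 in marker-positive and 1.39 to 3.61 in marker-negative arrays, with 6 lower, and Cd8a cleared background on 0 of 3 marker-positive arrays. The basal list had 1 of 11 genes called higher, the fibroblast list 1 of 9, the endothelial list 2 of 10 and the smooth muscle list 0 of 9. Called or not, 9 genes of each of these lists had differences above 0. The list medians were 0.87 (basal), 1.26 (fibroblast), 2.27 (endothelial) and 0.58 (smooth muscle). The smooth muscle median was -0.35 within slide 1 and 2.95 within slide 2. In the erythroid list 2 of 3 tested genes were called lower. Over all tested genes, 1.56% were called higher and 1.67% lower. The part of these markers in the ribosomal protein values was not tested.

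The ribosomal protein transcripts were measured near the top of the intensity range. Their median log2 intensity, averaged over both channels, was 16.8, against 8.81 over all tested genes. None was saturated in Cy5, and saturation in Cy3 was not counted. Rps18, a small-subunit head protein, was the brightest at 17.9. Of the 169 tested probes above a log2 intensity of 16, 71 were member probes and 19 were annotated as ribosomal protein copies. The dimmest were Rpl3l, the striated muscle paralog of Rpl3, at 7.04, and Rpl21 at 11.0. Rpl3l was also the gene missing from 1 array, being above background on 3 of 3 marker-positive and 5 of 6 marker-negative arrays. Fewer cells of a type and less RNA per cell cannot be told apart in sorted bulk RNA such as this.

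Ribosomal protein transcripts lay slightly lower in the marker-positive fraction, and 1 gene of the 78 passed the test. Across the 78 genes the median difference was -0.28 log2, or 0.821 times the marker-negative level, against -0.01 over all tested genes. Other bright probes shared part of this shift: above a log2 intensity of 16 the median difference was -0.28 over the 71 member probes and -0.19 over the 79 probes that were neither members nor copies, and above 15 it was -0.27 over 89 member probes and -0.13 over 275 others. The difference was below 0 for 72 of 78 genes (92.3%), against 51.1% of all tested genes, and 64 of the 78 lay within 0.5 log2 of 0. The share below 0 depended on the scaling: it was 57 of 78 with each array centred on its median in place of loess, and 50 of 78 with Cy5 alone. In limma's fit 1 gene, Rpl28, passed an adjusted p of 0.05, in the lower direction, and 0 passed in the higher direction. That is 1.28% of the members, against 3.22% of all tested genes in either direction, 1.67% in the lower and 1.56% in the higher direction. At an unadjusted p under 0.05, limma gave 13 members lower (16.7%) and 0 higher, where 19.5% of all tested genes passed, 9.83% lower and 9.71% higher. Those 13 were Rpl4, Rpl10, Rpl12, Rpl13a, Rpl21, Rpl28, Rpl32, Rpl36, Rpl37, Rpl41, Rplp0, Rps15 and Rps20. The median 95% interval reached 0.52 log2 to each side of a difference, and the interval excluded a change of 1 log2 unit in either direction for 58 of the 78.

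**Figure D1:**
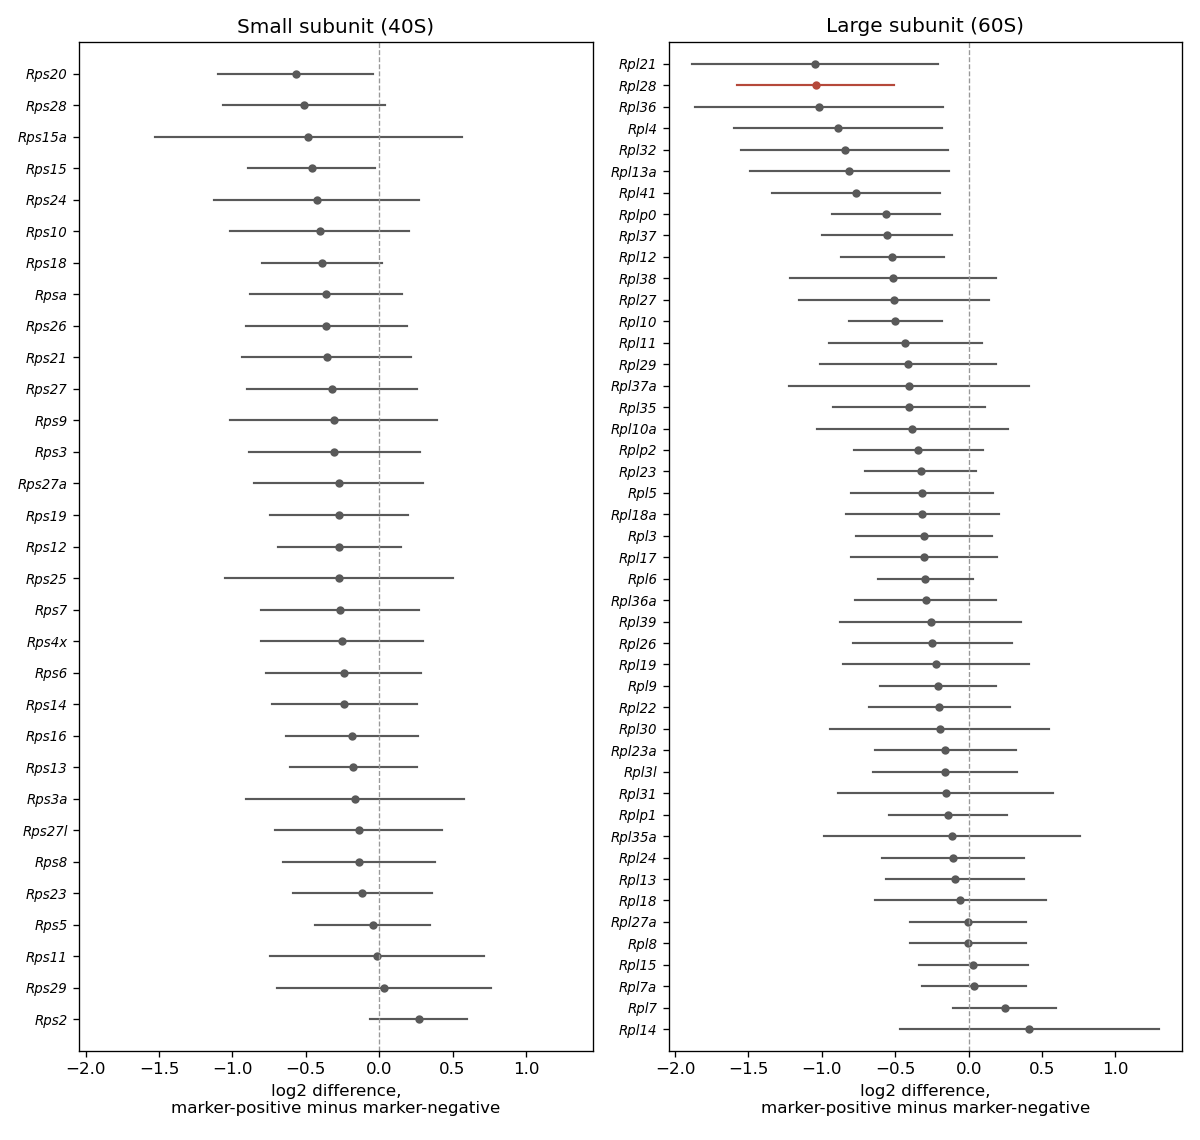
Difference in log2 ratio, marker-positive minus marker-negative arrays (x axis), for 77 of the 78 ribosomal protein genes (y axis), with 95% intervals from limma, in the small subunit (left) and the large subunit (right). Most points lie between 0 and -0.5, and Rpl28, in red, is the gene past an adjusted p of 0.05.

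Read array by array, the fractions overlapped. The median log2 ratio of the 78 genes was -0.50, -0.28 and -0.04 on the marker-positive arrays, against -0.25, -0.05, 0.11, 0.03, -0.13 and 0.30 on the marker-negative arrays. Marker-positive arrays 1 and 2 were the lowest of the 9, while marker-positive array 3 lay among the marker-negative ones. The group means of these medians were -0.27 ± 0.23 (SD, n = 3) for marker-positive and 0.00 ± 0.19 (SD, n = 6) for marker-negative arrays. Marker-positive array 3, which also had the smallest share of probes above background, gave the highest value of its group for 65 of the 78 genes. The median difference was -0.47 without it, and -0.14 without marker-positive array 1, where 64 of the 78 genes were below 0. Within the slides that held both groups the median difference was -0.28 on slide 1 and -0.32 on slide 2. Slide 1 held marker-positive array 1 and marker-negative array 1, and slide 2 held marker-positive array 2 and marker-negative arrays 2 and 4. Each within-slide value thus rests on 1 marker-positive array and has no spread. Marker-positive array 3 was the only array on slide 5, so array and slide cannot be told apart there. In the Cy3 channel alone, where the same pooled RNA was on every array, the median difference of the members was 0.05 and 0 members passed limma's adjusted p of 0.05. For single members the Cy3 difference ran from -0.22 (Rps2) to 0.42 (Rpl32), and a higher reference lowers the ratio.

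**Figure D2:**
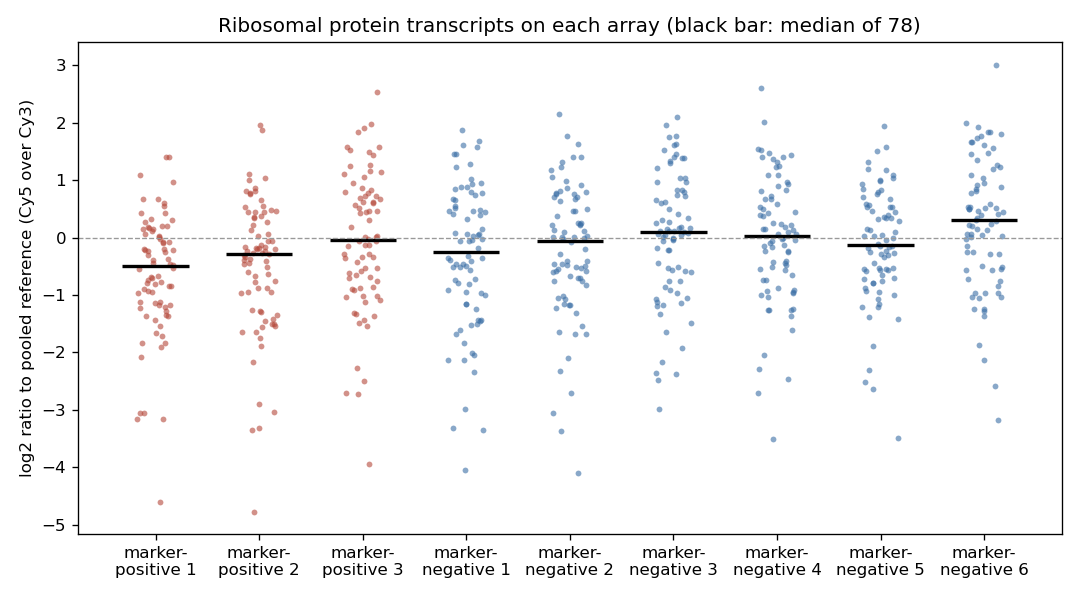
Log2 ratio of sample to pooled reference (y axis) for the 78 ribosomal protein genes, 1 point each, on the 3 marker-positive arrays (red) and the 6 marker-negative arrays (blue), with the median as a black bar. The medians run from -0.50 to -0.04 in the marker-positive arrays and from -0.25 to 0.30 in the marker-negative arrays.

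The subunits had medians close to each other. The 32 small-subunit genes had a median difference of -0.27, with 30 below 0 and 0 called, and ran from -0.57 (Rps20) to 0.27 (Rps2). The 46 large-subunit genes had a median difference of -0.30, with 42 below 0 and 1 called, and ran from -1.05 (Rpl21) to 0.41 (Rpl14). Whether the subunits differ was not tested. No member had every marker-positive array above every marker-negative one, where 5.13% of all tested genes did. For 6 members, all of the large subunit, every marker-positive array was below every marker-negative array (7.69%, against 6.48% of all tested genes): Rpl10, Rpl12, Rpl13a, Rpl28, Rpl6 and Rplp0. For Rplp0, brighter probes under another name gave smaller differences, as given below.

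Rpl28, a large-subunit protein that budding yeast lacks, fell to 0.486 times its marker-negative level. Its log2 ratio was -3.16, -3.32 and -2.72 on the marker-positive arrays, against -2.46 at the lowest, -2.01 at the median and -1.49 at the highest of the marker-negative arrays. Every marker-positive value was below every marker-negative value. The group means were -3.07 ± 0.31 (SD, n = 3) in marker-positive and -2.03 ± 0.35 (SD, n = 6) in marker-negative arrays, a difference of -1.04 (SE 0.24, 95% interval -1.58 to -0.51). The limma adjusted p was 0.0477, just inside the threshold, and it was above the threshold under 12 of the alternative settings. The difference was -1.03 on slide 1 and -0.93 on slide 2. The probe lies at chr7:4367685-4367744 on the plus strand in the files' build mm7.

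The other large differences belonged to large-subunit genes and did not pass the test. Rpl21 had log2 ratios of -0.39, -0.40 and 0.43 in marker-positive arrays, against -0.0031, 0.97 and 1.76 at the lowest, median and highest of the marker-negative arrays, for a difference of -1.05 (95% interval -1.88 to -0.21, limma adjusted p 0.161). The groups overlapped, and a second, dimmer Rpl21 probe gave a difference of 1.17, so the 2 probes of the gene disagreed in sign. Rpl36 differed by -1.02 (95% interval -1.86 to -0.18, limma adjusted p 0.174). These 2 genes and Rpl28 were the 3 members whose difference reached 1 log2 unit in size.

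Rpl4, whose protein lines the peptide exit tunnel, had log2 ratios of -4.61, -4.77 and -3.94 in marker-positive arrays, against -4.09, -3.50 and -2.99 at the lowest, median and highest of the marker-negative arrays. The third marker-positive array overlapped the marker-negative range, and the difference was -0.89 (95% interval -1.60 to -0.18, limma adjusted p 0.159). Rpl32 had 0.01, 0.44 and 1.52 in marker-positive arrays, against 1.09, 1.54 and 1.84 at the lowest, median and highest of the marker-negative arrays. Marker-positive arrays 1 and 2 lay below all marker-negative arrays and array 3 lay among them. The difference was -0.84 (95% interval -1.55 to -0.14, limma adjusted p 0.177) with all arrays, and -1.28 without marker-positive array 3, where the limma adjusted p was 0.0181. With Cy5 alone the Rpl32 difference was -0.15.

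Rpl13a, which in human myeloid cells leaves the ribosome to silence inflammatory mRNAs, had 0.15, -0.06 and 0.45 in marker-positive arrays, against 0.54, 0.80 and 2.0 at the lowest, median and highest of the marker-negative arrays. The groups did not overlap, but the highest marker-positive value was 0.45 and the lowest marker-negative value 0.54. The difference was -0.81 (95% interval -1.49 to -0.14, limma adjusted p 0.176).

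**Figure D3:**
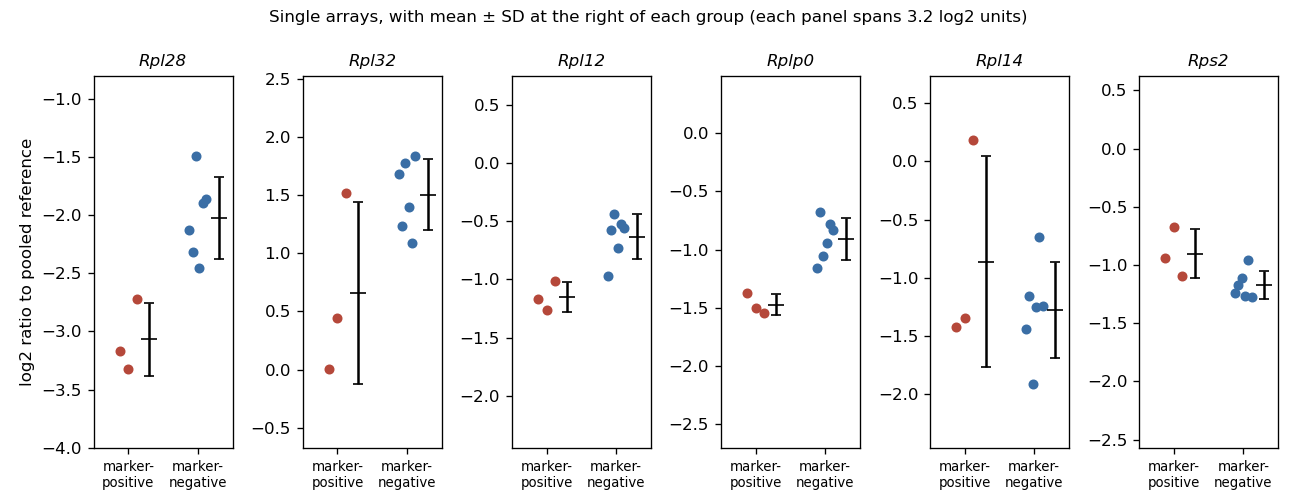
Log2 ratio to the pooled reference (y axis, with panels of equal span) on single arrays for 6 genes, marker-positive arrays in red at the left and marker-negative arrays in blue at the right of each panel, with mean and SD. Rpl28, Rpl12 and Rplp0 have separate groups, in Rpl32 and Rpl14 marker-positive array 3 stands above the other marker-positive arrays, and in Rps2 the groups overlap.

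Rpl10, Rpl12 and Rpl6 had smaller differences with little spread, and Rpl12 and Rpl6 were singled out after their values were seen. Rpl10, which joins the large subunit late and sits near the peptidyl transferase centre, had 1.09, 1.11 and 1.14 in marker-positive arrays, against 1.46, 1.60 and 1.77 at the lowest, median and highest of the marker-negative arrays. All marker-positive values were lower, with a difference of -0.50 (95% interval -0.81 to -0.18, limma adjusted p 0.0890), the smallest adjusted p after that of Rpl28. The Rpl10 difference was -0.04 with Cy5 alone and 0.28 in the Cy3 reference channel. A second, dimmer Rpl10 probe gave -0.55 (limma adjusted p 0.139), and its groups overlapped. Rpl12, which with Rplp0 forms the base of the stalk, had -1.17, -1.27 and -1.02 in marker-positive arrays, against -0.97, -0.57 and -0.44 at the lowest, median and highest of the marker-negative arrays. The groups did not overlap, and the difference was -0.52 (95% interval -0.87 to -0.17, limma adjusted p 0.107). Rpl6 had -0.19, -0.12 and -0.13 in marker-positive arrays, against -0.045, 0.16 and 0.34 at the lowest, median and highest of the marker-negative arrays. Its groups were separate too with a difference of -0.29 (95% interval -0.62 to 0.03, limma adjusted p 0.296). A second, dimmer Rpl6 probe gave -0.20 (limma adjusted p 0.598), and its groups overlapped.

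The stalk recruits the elongation factors. Its anchor Rplp0 had -1.37, -1.51 and -1.54 in marker-positive arrays, against -1.16, -0.89 and -0.67 at the lowest, median and highest of the marker-negative arrays. The groups did not overlap, and the difference was -0.56 (95% interval -0.93 to -0.19, limma adjusted p 0.0984). The files place this probe on chromosome 8, while RefSeq places the gene on chromosome 5 (GRCm38.p6). Both probes that carry the older name Arbp, which RefSeq assigns to Rplp0 and which the choice by name left out, gave -0.16 and -0.21. These probes were brighter, with log2 intensities of 17.1 and 16.9 against 15.4 for the probe used. The size for Rplp0 thus depends on the probe, and the brighter probes gave the smaller differences. The acidic stalk proteins differed by -0.14 (Rplp1, 95% interval -0.54 to 0.26) and -0.34 (Rplp2, 95% interval -0.78 to 0.10). Rpsa, a small-subunit protein also known as the laminin receptor precursor, differed by -0.37 (95% interval -0.88 to 0.15).

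A difference above 0 was measured for 6 members. Rpl14 had -1.43, -1.34 and 0.18 in marker-positive arrays, against -1.92, -1.25 and -0.65 at the lowest, median and highest of the marker-negative arrays. Marker-positive array 3 was the highest of all 9 arrays and the other marker-positive arrays lay within the marker-negative range. The difference was 0.41 (95% interval -0.47 to 1.29), and -0.11 without marker-positive array 3. Rps2, near the mRNA entry channel, had -0.94, -0.67 and -1.09 in marker-positive arrays, against -1.28, -1.21 and -0.95 at the lowest, median and highest of the marker-negative arrays. Marker-positive array 3 overlapped the marker-negative range, and the difference was 0.27 (95% interval -0.07 to 0.60). The other tested Rps2 probe, which was dimmer, gave 0.06 (limma adjusted p 0.905). In the Cy3 reference channel the probe used differed by -0.22, and a lower reference raises the ratio. Rpl7 differed by 0.25 (95% interval -0.10 to 0.59), but its other probes gave -0.31 and -0.15. Rpl7a, Rps29 and Rpl15 differed by 0.04, 0.03 and 0.03. None of the 6 passed limma's test.

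The paralogs and their parents did not pass the test. The array had a tested probe for 2 members of the paralog list, Rpl3l and Rps27l. Rpl3l differed by -0.16 (95% interval -0.65 to 0.33) and its parent Rpl3, which reaches the peptidyl transferase centre, by -0.30 (95% interval -0.77 to 0.16). Rps27l, a target of p53, differed by -0.14 (95% interval -0.71 to 0.43) and Rps27 by -0.32 (95% interval -0.90 to 0.26). Over all tested genes, 3.22% were called in either direction, so a count of 0 in a short list does not set its genes apart. Of the 18 members whose human counterparts are mutated in Diamond-Blackfan anaemia, 0 were called and the median difference was -0.30. Among them, Rps19, the gene most often mutated in that disease, differed by -0.27 (95% interval -0.74 to 0.20), and the Mdm2-binding Rpl5 and Rpl11 by -0.32 (95% interval -0.80 to 0.17) and -0.43 (95% interval -0.95 to 0.09). Rps6, the S6 kinase substrate, differed by -0.24 (95% interval -0.77 to 0.29). Of 71 tested probes annotated as ribosomal protein copies, 0 were called, against the same 3.22% of all tested genes, and the median difference was -0.16.

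Set against the pooled reference, the members spread far more among themselves than between fractions. Their mean log2 ratio over all 9 arrays ran from -3.85 for Rpl4 to 2.05 for Rpl35a, with a median of -0.15. Rpl13, Rpsa and Rps15a were the next lowest, and Rpl10 and Rps26 were also at the high end. Rpl35a averaged 1.97 ± 0.56 (SD, n = 3) in marker-positive and 2.09 ± 0.64 (SD, n = 6) in marker-negative arrays, and Rpl13 averaged -2.89 ± 0.17 (SD, n = 3) in marker-positive and -2.80 ± 0.32 (SD, n = 6) in marker-negative arrays. With no dye swap, a ratio to the reference is open to dye bias, and probes of 1 gene did not share a level. Among 35 genes with at least 2 placed probes, the ratio differed by a median of 0.86 log2 and by up to 4.01 (Rpl17) between probes of the gene, while the difference between fractions varied by a median of 0.21 and by over 1 log2 unit in 1 gene, Rpl21. The probe nearest the 3′ end had the highest ratio in 15 of these genes, the lowest in 16 and neither in 4. Rps24, Rps18, Rps15a and Rpl11 were, after Rpl21, the genes with the widest range of difference over their probes. In each of these genes and in Rpl21 the highest difference came from a probe dimmer than the one used. The log2 intensity of that probe was 9.71 in Rps24, 7.99 in Rps18, 7.15 in Rps15a, 9.83 in Rpl11 and 8.06 in Rpl21.

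Of 6 tested ribosomal protein genes and paralogs whose names the choice did not take, 0 passed, and 2 were lower at an unadjusted p under 0.05. The median difference of these 6 genes was -0.18. Over all tested genes, 3.22% passed in either direction, and 9.83% were lower at an unadjusted limma p under 0.05. Rpl36al, a paralog of Rpl36a, differed by -0.68 (limma adjusted p 0.232), Rpl22l1 by -0.20 and Rpl7l1 by 0.15. Rpl34, carried under the name 1100001I22Rik, gave -0.33 and -0.40 on its 2 probes, and Rps4l gave 0.25.

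Mitochondrial ribosomal protein genes, encoded in the nucleus for the separate mitochondrial ribosome, had 4 of 78 tested genes lower and 0 higher (limma adjusted p under 0.05), with 63 below 0 and a median difference of -0.41. Of all tested genes, 1.67% were called lower and 51.1% were below 0. Mrpl53 had -1.62, -1.10 and -0.93 in marker-positive arrays and averaged -0.07 in marker-negative arrays (difference -1.14, limma adjusted p 0.0329). Mrpl22 differed by -1.10, Mrps34 by -1.10 and Mrps26 by -0.82, with limma adjusted p-values of 0.0409, 0.0447 and 0.0447. Whether the cytosolic and mitochondrial sets differ from each other was not tested.

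Genes of the machinery around the ribosome were counted by list, where 3.22% of all tested genes were called in either direction. Of 20 genes with TOP mRNAs other than ribosomal proteins, 1 was higher and 1 lower, with a median of -0.12. The lower gene was Eif4b, a cofactor of the helicase eIF4A, at -1.48 (SE 0.27, limma adjusted p 0.0206). The higher one was Vim, the intermediate filament protein of mesenchymal cells, at 2.78 (SE 0.43, limma adjusted p 0.00958). Eef2, the translocation factor, differed by -0.51 (limma adjusted p 0.182). Of 29 initiation factor genes 1 was lower, Eif2b1, a subunit of the exchange factor of eIF2, at -1.15 (SE 0.25, limma adjusted p 0.0399). None was higher, and the list median was -0.31 over all arrays, 0.12 within slide 1 and -0.25 within slide 2.

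Ribosome biogenesis had 0 of 39 genes called and a median of -0.09 (0.11 within slide 1 and -0.17 within slide 2), and Gar1, a protein of the small nucleolar particles that guide pseudouridylation, had the smallest adjusted p of that list (-1.50, limma adjusted p 0.109). Of 21 genes of rDNA transcription and 6 snoRNA host genes, 0 were called. Of 23 regulators of TOP mRNAs or ribosomal protein genes 0 were called, and their median was 0.19 over all arrays, 0.04 within slide 1 and -0.11 within slide 2. Of 15 proliferation genes 0 were called, with a median of -0.05.

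The authors' deposited table gave more calls for the same probes. At its adjusted p of 0.05, 9 of the 78 probes (11.5%) were lower in stem cells and 0 higher, where 5.31% of all its probes passed in either direction and 3.14% were lower. Those shares are over 41174 probes with no detection filter, unlike the shares of tested genes given above. The 9 in the authors' deposited table were Rpl28, Rpl12, Rpl37, Rpl4, Rps20, Rpl36, Rpl10, Rps28 and Rplp0. In the authors' deposited table Rpl28 had a log2 difference of -1.07 and an adjusted p of 0.00765, and the median difference of the 78 probes was -0.34. That table's log2 column has the opposite sign to its own fold for stem over non-stem cells and was turned to match the fold.

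The group median kept its sign under every setting tried, and its size depended on the setting. It was -0.12 with median centring and -0.11 with Cy5 alone, against -0.37 with array weights, which gave marker-positive array 3 a weight of 0.241. With the loess curve fitted without any ribosomal protein probe, a setting chosen after seeing the data, the median was -0.38.

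**Figure D4:**
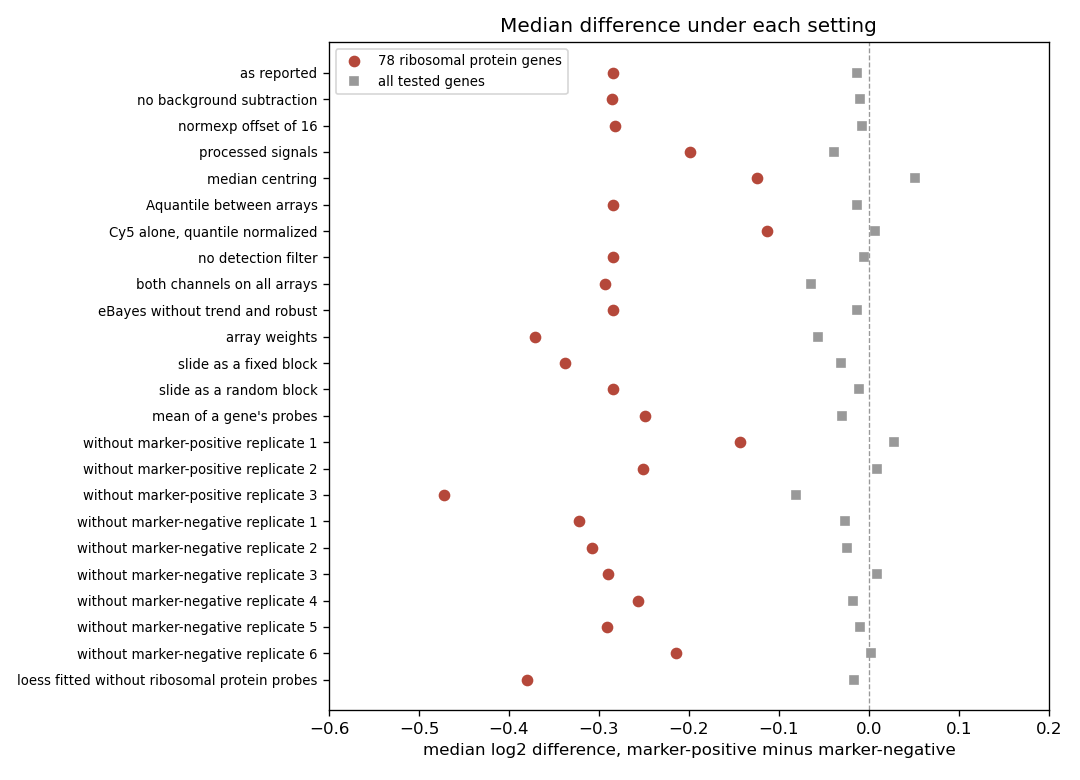
Median log2 difference, marker-positive minus marker-negative (x axis), of the 78 ribosomal protein genes (red) and of all tested genes (grey) under each setting (y axis). The red points lie between -0.47 and -0.11 and the grey points between -0.08 and 0.05.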

How the data were processed

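RNA of 9 samples was measured on 2-colour Agilent arrays (design 014868). The deposited scanner files hold mean spot and local background intensity values of both channels, read with Agilent Feature Extraction (10.7 by the submitters' processing notes, 10.7.3.1 per the file headers), with processed intensities that the software had background-subtracted and dye-normalized. The authors' deposited table lists log2 differences, each p-value and adjusted p-value, and score columns (moderated t, log odds and a signed fold). Its normalization was not given in the sources used here.

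From the mean intensities, ratios were computed with limma 3.58.1 in R 4.3.3: normexp with an offset of 50, then loess per array, giving controls and outliers a weight of 0. Spots of a probe were averaged. The 28340 probes with Cy5 clearly over background on 3 or more arrays were tested. Names came from RefSeq accessions or symbols: of the 130 member probes, 109 matched by accession and 21 by symbol. Groups were compared two-sided with limma (lmFit, then eBayes with trend and robust), with Benjamini-Hochberg adjustment over every tested probe and a threshold of 0.05. Plots used matplotlib 3.10.9. Arrays are numbered by accession, so shared numbers imply no pairing.

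Members named were the called ones, the 6 largest differences in each direction, the stalk genes and Rpsa, tested paralogs with their parents, the 5 genes whose probes differed most, the 4 highest and 4 lowest ratios, and up to 4 genes of each related list. The single values of 2 genes are not reported here. Members and lists were chosen with earlier results of these data known. The procedure was tested on simulated data. Alternatives covered background correction, scaling, detection filter, variance model, array weights, slide, probe rule and each array left out.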

Additional observations from a re-analysis of the deposited data

Results flagged for a closer look

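Among 31 groups of marker-negative values of named members or of array medians, 1 held a value that stood apart from the rest by the gap between neighbours, and chance flags about 1 in 20 groups. Rps26, a small-subunit protein near the mRNA exit, had a log2 ratio of 1.19 on marker-negative array 5, against a group median of 1.60 and a highest value of 1.73. The gap to the next array was 0.631 of the group's range.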

How the results depend on the processing

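No paired analysis was possible because the labels give no replicate numbers that the groups share, and blocking was possible by slide alone. The median difference of the members was -0.28 as reported, ran from -0.47 to -0.14 with each array left out in turn, and was below 0 under every setting. For the small subunit that range was -0.46 to -0.10 and for the large subunit -0.48 to -0.19, and with Cy5 alone the large-subunit median was -0.092. The count of members called lower, 1 as reported, was 0 with median centring, Cy5 alone, no detection filter, plain eBayes and slide as a fixed block, 20 with array weights, and 0 to 2 with an array left out. It was 0 without marker-positive array 1 or 2 or marker-negative array 1, 2, 3, 5 or 6, and 2 (Rpl28 and Rpl32) without marker-positive array 3. Rpl28 kept its direction but lost its call at -0.91 with median centring (limma adjusted p 0.283), -0.96 with Cy5 alone (0.155), -1.04 without the filter (0.0629) and with plain eBayes (0.0612), and -0.97 with slide as a block (0.111). With an array left out its difference ran from -1.22 to -0.92. Over all genes, 331 were lower and 309 higher as reported, 85 and 139 with median centring, 20 and 127 with slide as a fixed block, 2160 and 2135 with array weights, and 89 to 496 lower and 99 to 931 higher with an array left out. Some members changed sign, Rpl21, Rpl11 and Rpl14 among them although their reported differences were -1.05, -0.43 and 0.41. With median centring Rpl13 was 0.056, Rpl35a 0.13 and Rps27l 0.081. With Cy5 alone Rpl11 was 0.016, Rpl35a 0.21, Rplp1 0.062 and Rplp2 0.042. With array weights Rpl14 was -0.092, Rpl15 -0.047 and Rps29 -0.14. With slide as a block Rpl13 was 0.10, Rplp1 0.078, Rpl14 -0.073, Rpl15 -0.035 and Rps29 -0.10. With the mean of a gene's probes Rpl21 was 0.061, Rpl7 -0.072 and Rpl7a -0.035. With loess fitted without ribosomal protein probes, a setting chosen after seeing the data, Rpl15 was -0.059, Rpl7a -0.081 and Rps29 -0.070. With an array left out Rpl14 ran from -0.11 to 0.70, Rpl15 from -0.11 to 0.13, Rps29 from -0.33 to 0.25, Rpl35a from -0.40 to 0.16 and Rpl7a from -0.0057 to 0.11. The causes were not tested. The number of arrays limits the precision, and above a log2 intensity of 16 only 79 of 169 probes were neither members nor copies of ribosomal protein genes.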
